A study of Mus musculus with 503 samples.

Results

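The sodium-dependent transporters of glutamate, glycine, GABA and related small amino acids were followed in single perivascular cells of the mouse spinal cord. The members are 8 genes chosen by symbol, *Slc1a1*, *Slc1a2*, *Slc1a3*, *Slc6a6*, *Slc6a9*, *Slc6a12*, *Slc6a13* and *Slc6a20a*, of 56701 gene rows in the count table, and all 8 had counts. Cells came from the thoracic cord, freed of its outer meninges. All animals were adult GLAST-CreERT2;R26R-tdTomato;Pdgfrb-eGFP mice, given tamoxifen so that cells using the GLAST gene at that time, and their progeny, carry tdTomato. EGFP marks cells that use *Pdgfrb*, a receptor gene active in the mural cells of vessels (pericytes, smooth muscle) and in perivascular fibroblasts. The 4 groups are tdTomato+EGFP+ and tdTomato-EGFP+ cells from uninjured cords, then the same pair of sorts 3 days after a complete spinal crush (SCI), and 4 values in a row follow that order below. Each cell was taken through Smart-seq3, which sequences full-length RNA of single cells. All samples are labelled female, and the study's methods limit the crush to females, whereas its reporting summary names both sexes for sequencing. The labels give 3 days and the series description 5 days, and the labels were followed.

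*Slc1a3* encodes GLAST itself, so the sort was made by the activity of 1 member, and a difference in that gene between the sorts is not independent of the sort. The label marks cells by past Cre activity, and a cell whose reporter did not recombine is sorted as tdTomato- whatever its GLAST level. No label names an animal. Each group was therefore treated as 1 sample, and no test, p-value or standard error was computed from cells. The spread given is that between the plates, 209 and 213 for uninjured cells and 211 and 215 for injured cells, so that injury and plate cannot be told apart.

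These carriers sit in the plasma membrane and use the sodium gradient to bring their substrate into the cell. The SLC1 members clear glutamate and aspartate from the extracellular space of the nervous system, and astrocytes are the best known site of *Slc1a2* and *Slc1a3*. The SLC6 members carry taurine (*Slc6a6*), glycine (*Slc6a9*), betaine and GABA (*Slc6a12*), GABA and taurine (*Slc6a13*) and proline (*Slc6a20a*). Several of them are known from the meninges and the blood-brain barrier as well as from glia.

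After filtering, 468 cells remained. Plates 209 and 213 held 65 and 72 tdTomato+EGFP+ and 46 and 60 tdTomato-EGFP+ cells, and plates 211 and 215 held 88 and 34 tdTomato+EGFP+ and 58 and 45 tdTomato-EGFP+ cells, with 25645409 to 38406035 counts per group. The 34 injured tdTomato+EGFP+ cells of plate 215 were shallow, with a median of 14770 counts, and plate 211 held 94.6% of the counts of that group. Plate 211 also stood apart in its gene symbols: 4210 genes had counts there and on no other plate, and 223 genes were at 0 there but at 10 or more CPM (counts scaled to a total of 1e6) on the other plates. No cell had the same counts as another. Each group's counts were added up and given as CPM, with exact Poisson 95% intervals that cover counting error only, since PCR copies of a molecule are not independent.

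The sort label was checked with markers. The summed level of 8 pericyte markers was 11050, 12150, 681 and 11050 CPM in the 4 groups. The 8 perivascular fibroblast markers stood at 3734, 1706, 21220 and 8319 CPM, and 6 smooth muscle markers at 933.7, 2992, 1360 and 2602 CPM. The 5 endothelial markers, none of them at 0 in any group, summed to 3633, 3867, 344 and 1456 CPM, although cells with more *Pecam1* than *Pdgfrb* had been removed. The tdTomato+EGFP+ group was thus a pericyte-rich population with endothelial transcripts before injury and a fibroblast-rich population at 3 days. A group level therefore mixes cell types, and a shift in their proportions and a change within a cell type cannot be told apart in the sums.

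The starts of 4 carriers are shown first, as examples of the calls described further on. *Slc1a1* and *Slc6a20a* were lower at 3 days in both sorts, and *Slc1a3* and *Slc6a13* were higher in tdTomato+EGFP+ cells. The sequences are the stretches upstream of the first start that RefSeq lists for each gene (GRCm38.p6, coding strand, 5′ to 3′). Each is printed up to the first base of the gene in GENCODE, except that of *Slc1a3*, which ends before it. They lie at chr19:28834885-28835048 (*Slc1a1*, plus strand), chr9:123678886-123679082 (*Slc6a20a*, minus), chr6:121300038-121300226 (*Slc6a13*, plus) and chr15:8710808-8711057 (*Slc1a3*, minus). Capitals mark the letters of 3 motifs on either strand: the GC box GGGCGG, the TATA box TATAAA and CCAAT.
Slc1a1: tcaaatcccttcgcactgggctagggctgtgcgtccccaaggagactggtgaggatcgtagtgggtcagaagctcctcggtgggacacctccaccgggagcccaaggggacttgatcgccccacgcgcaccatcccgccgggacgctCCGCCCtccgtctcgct
Slc6a20a: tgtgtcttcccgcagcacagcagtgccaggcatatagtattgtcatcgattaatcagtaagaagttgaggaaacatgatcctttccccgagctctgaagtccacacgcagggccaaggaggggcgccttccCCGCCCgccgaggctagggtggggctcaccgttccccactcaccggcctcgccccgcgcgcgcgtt
Slc6a13: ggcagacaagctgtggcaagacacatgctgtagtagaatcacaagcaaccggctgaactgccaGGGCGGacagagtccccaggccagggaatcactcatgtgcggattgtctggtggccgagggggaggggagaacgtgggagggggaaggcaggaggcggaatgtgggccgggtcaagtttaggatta
Slc1a3: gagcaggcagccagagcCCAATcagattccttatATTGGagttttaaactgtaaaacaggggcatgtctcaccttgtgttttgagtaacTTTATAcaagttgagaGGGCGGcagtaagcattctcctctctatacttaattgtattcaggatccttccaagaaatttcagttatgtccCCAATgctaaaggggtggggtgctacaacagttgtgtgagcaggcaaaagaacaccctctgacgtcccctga

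The stretches differed in base composition. Over the 250 bases upstream of the RefSeq start, *Slc1a1* had 70.4% G and C with 27 CpG dinucleotides and *Slc6a20a* had 61.2% with 21. *Slc6a13* had 60.8% with 9, *Slc1a3* had 44.8% with only 2, and the median of 32851 promoters was 52.4% with 6. A GC box was present in all 4 windows and in 32.7% of all promoters. Of these 4 windows, that of *Slc1a3* alone held the TATA letters (12.4% of all promoters) and CCAAT (33.8%, here 3 times). The forkhead letters TGTTTAC (3.17% of all promoters) were in none of the 4. The tables matched 7 of the 8 members, the exception being *Slc6a6*.

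In GENCODE vM21 (GRCm38), *Slc1a1* spans chr19:28835049-28913960, *Slc1a2* chr2:102658659-102790784, *Slc1a3* chr15:8634124-8710764 and *Slc6a6* chr6:91684053-91759066. *Slc6a9* spans chr4:117834506-117875198 and *Slc6a20a* chr9:123634770-123678885. *Slc6a13* (chr6:121300227-121337733) and *Slc6a12* (chr6:121343076-121365775) are neighbours on the same strand. Whether counting used strand is not stated, so reads cannot be told apart where exons overlap. Exons of *Slc1a1* share 2631 bases with *Spata6l* on the other strand, and those of *Slc6a20a* share 563 bases with the antisense gene *Gm17120*. Exons of *Slc6a9* share 1429 bases with *Ccdc24* and 511 with *Gm17114*, also on the other strand.

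Compared per kilobase of all annotated exons, the carriers of taurine, proline and GABA led in uninjured tdTomato+EGFP+ cells. This scale suits counts of reads and not of molecules, and which of these were counted is not given. In uninjured tdTomato+EGFP+ cells *Slc6a13* stood at 157.5 CPM per kilobase, *Slc6a6* at 143.4 and *Slc6a20a* at 143.4, against 27.9 for *Slc1a1* and 24.8 for *Slc1a3*. *Slc6a20a* (142.2) led in uninjured tdTomato-EGFP+ cells, followed by *Slc6a6*. *Slc6a13* (25.3) and *Slc1a3* (24.2) led in injured tdTomato+EGFP+ cells, and *Slc6a6* (49.7) and *Slc6a20a* (30.9) in injured tdTomato-EGFP+ cells. Without division by exon length, *Slc6a6* (1213 CPM) and *Slc6a20a* (585.8 CPM) stood above *Slc6a13* (457.4 CPM) in uninjured tdTomato+EGFP+ cells. The leading carrier was then *Slc6a6* (1091 CPM) in uninjured tdTomato-EGFP+ and *Slc1a3* (206.5 CPM) in injured tdTomato+EGFP+ cells. *Slc1a2*, *Slc6a9* and *Slc6a12* were at most 12.9 CPM per kilobase in all 4 groups.

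**Figure D1:**
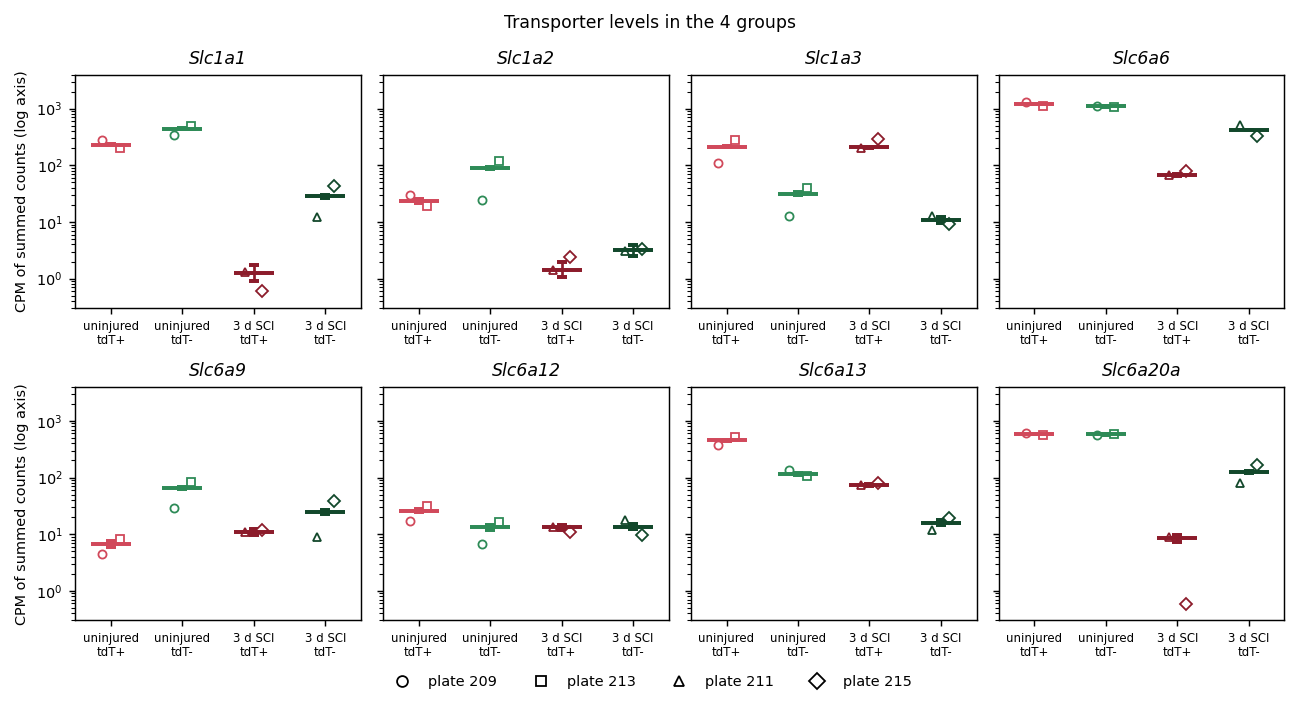
CPM of the summed counts of each transporter (log axis) in the 4 groups; horizontal marks are the group sums, vertical bars their exact Poisson 95% intervals, and open symbols the values of the plates. *Slc1a1*, *Slc6a6*, *Slc6a13* and *Slc6a20a* are lower at 3 days in both sorts, whereas *Slc1a3* stands at 211.5 and 206.5 CPM in tdTomato+EGFP+ cells.

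*Slc1a3*, which encodes the glutamate and aspartate carrier GLAST, was higher in tdTomato+EGFP+ cells at both times, as was *Slc6a13*. Before injury its level was 211.5 CPM (206.9 to 216.2) among tdTomato+EGFP+ cells, with 111.3 on plate 209 and 283.7 on plate 213. Among tdTomato-EGFP+ cells it was 31.5 CPM (29.4 to 33.7), with 12.6 and 40.5 on the same plates. At 3 days it was at 206.5 CPM (201.5 to 211.6) in tdTomato+EGFP+ cells (201.6 and 293.3 on plates 211 and 215) and at 10.7 CPM (9.49 to 12.1) in tdTomato-EGFP+ cells (12.5 and 9.07). The plate values of the 2 tdTomato+EGFP+ groups overlapped, and both lay above every tdTomato-EGFP+ plate. Single cells were spread widely: the median cell was at 6.80 CPM in uninjured and 55.4 CPM in injured tdTomato+EGFP+ cells, and the highest at 1999 and 3246 CPM. The largest single cell held 16.7%, 44.3%, 15.3% and 33.8% of the counts in the 4 groups.

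After each cell was thinned to 20000 counts, *Slc1a3* had a count in 41.7% (exact 95% interval 33 to 50.8) of uninjured and 57% (46.7 to 66.9) of injured tdTomato+EGFP+ cells. In tdTomato-EGFP+ cells the shares were 16.3% (9.42 to 25.5) and 10.8% (5.51 to 18.5). Thinning left out 10, 14, 22 and 1 cells below that depth. At full depth the same cells gave 63%, 41.3%, 89% and 33.3%. The order of the groups was the same at both depths.

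*Slc1a1* encodes the glutamate carrier EAAC1, which also takes up cysteine. Before injury tdTomato+EGFP+ cells had 231 CPM (226 to 236), with 273.9 and 199.7 on plates 209 and 213, and tdTomato-EGFP+ cells had 443 CPM (435.5 to 451.5), with 342.7 and 491.1. At 3 days it was at 1.25 CPM (0.891 to 1.71) in tdTomato+EGFP+ cells, 39 counts of which 1 cell held 19, and at 28.15 CPM (26.1 to 30.3) in tdTomato-EGFP+ cells. No plate values overlapped between any neighbouring groups in this order. In injured tdTomato-EGFP+ cells 1 cell of plate 215 held 46.4% of the counts, and the level without it was 15.5 CPM. A count of *Slc1a1* remained after thinning in 62.2% and 59.8% of cells in the uninjured sorts and in 16.7% of injured tdTomato-EGFP+ cells. It remained in 0 of 100 injured tdTomato+EGFP+ cells, for which the exact 95% interval reaches 3.62%. The overlapping *Spata6l* moved with it, at 135.6, 240.1, 0.0321 and 14.6 CPM in the 4 groups, but plate 211 had 0 counts under that symbol and carried the same locus as *4430402I18Rik*.

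*Slc1a2*, the GLT carrier of astrocytes, was low in most cells. The sums were 23.5, 87.8, 1.44 and 3.20 CPM in the 4 groups, whereas the median cell stood at 3.19, 2.16, 0 and 0 CPM. The level of 87.8 CPM was 24.2 on plate 209 and 117.9 on plate 213, where 1 cell held 73.4% of the counts of the group. Without that cell the level was 23.8 CPM, next to the 23.5 CPM of tdTomato+EGFP+ cells.

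The same cell, on plate 213 with 510797 counts, led 3 of the 8 carriers in its group. It held 3395 CPM of *Slc1a2*, 736.1 CPM of *Slc1a3* and 2408 CPM of *Slc6a9*, which was 69% of the group's *Slc6a9* counts. It had counts of all 9 astrocyte markers, with a summed level of 15310 CPM against a group median of 187.4 CPM, and no count of any of the 5 endothelial markers. It also held 81.8% of the counts of *Slc6a11*, a GABA carrier best known from astrocytes, in the group. The rule that removed astrocytes used *Gfap* and did not remove it. Across the groups the summed astrocyte markers stood at 283.6 and 574.2 CPM before injury, and by plate at 11.3 to 34.6 and 115.1 to 121.1 CPM in injured tdTomato+EGFP+ and tdTomato-EGFP+ cells, with 1 of the 9 at 0 in each injured group, and their part in the *Slc1a2* and *Slc6a9* levels was not tested beyond leaving out the highest cell of each group. The highest single cell of uninjured tdTomato+EGFP+ cells had an astrocyte sum of 32670 CPM. No injury difference of a member in tdTomato+EGFP+ cells changed at 2 decimals without it. It was not the top cell by counts for any astrocyte marker in its group, so its removal says little on astrocyte transcripts. The cell ranked 2 by that sum, on plate 209 with 698861 counts, had 3003 CPM and 55.2% of the group's *Aldoc* counts. It was kept in, and its part in these differences was not tested.

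**Figure D2:**
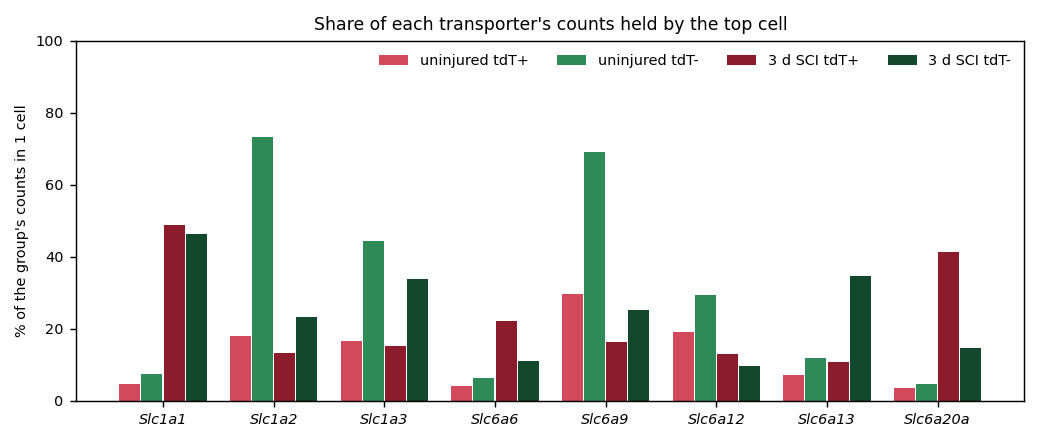
Percent of each transporter's counts in a group that came from its single highest cell, for the 8 transporters and 4 groups. The highest bars are *Slc1a2* (73.4%) and *Slc6a9* (69%) in uninjured tdTomato-EGFP+ cells, and *Slc6a6* in uninjured tdTomato+EGFP+ cells is at 4.07%.

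*Slc6a6*, the taurine carrier, had counts in 66.4% to 85.8% of the cells of each group. It stood at 1213 CPM (1202 to 1224) and 1091 CPM (1079 to 1104) in the uninjured sorts, where plates ranged from 1125 to 1335 and from 1081 to 1113 CPM. The largest cell held only 4.07% and 6.25% of the counts, and the median cell stood at 807.3 and 620.5 CPM. At 3 days the level was 67.4 CPM (64.6 to 70.4) in tdTomato+EGFP+ cells (66.7 and 80.5 on plates 211 and 215) and 420.0 CPM (412.1 to 428.0) in tdTomato-EGFP+ cells (514.0 and 334.6). The plate values of the 4 groups did not overlap. After thinning, 78.7%, 78.3%, 46% and 58.8% of the cells of the 4 groups had a count. In injured tdTomato-EGFP+ cells the median cell was at 65.1 CPM, far below the group level of 420.0 CPM, so that a minority of cells held most of the counts.

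*Slc6a9*, the glycine carrier GlyT1, had counts in 18.2%, 24.5%, 42.6% and 25.2% of the cells of the 4 groups. Its sums were 6.74 CPM (4.48 and 8.38 by plate), 66.3 CPM (28.6 and 84.1), 10.9 CPM (10.8 and 11.9) and 24.3 CPM (9.10 and 38.2) in the 4 groups. Without the cell rich in astrocyte transcripts the uninjured tdTomato-EGFP+ level was 20.9 CPM. After thinning a count remained in 9.45%, 14.1%, 17% and 12.7% of cells, with exact intervals that overlapped between all 4 groups. Its plate values overlapped between uninjured and injured tdTomato-EGFP+ cells and between the 2 injured groups.

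*Slc6a12* and *Slc6a13* differed although they are neighbours in the genome. *Slc6a12*, the betaine and GABA carrier, stood at 25.9, 13.2, 13.2 and 13.6 CPM in the 4 groups, and the plate values of all groups next to each other in this order of level overlapped. *Slc6a13*, a GABA and taurine carrier of meningeal and perivascular cells, stood at 457.4 CPM (450.7 to 464.2) and 115.9 CPM (111.9 to 120.1) in the uninjured sorts. It stood at 73.5 CPM (70.6 to 76.6) and 15.8 CPM (14.3 to 17.5) in the injured sorts. By plate these were 373.6 and 517.8, then 136.2 and 106.4, then 73.2 and 79.3, then 11.9 and 19.4 CPM, with no overlap. Exons of the pair share 4 runs of 50 bases, 0.173% of those of *Slc6a13*.

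*Slc6a20a*, a carrier of proline, was evenly held before injury. The uninjured sorts had 585.8 CPM (578.2 to 593.5) and 580.9 CPM (571.9 to 590.1), and the plate values (566.1 to 613.2 and 567.6 to 587.3) overlapped. At 3 days it was at 8.41 CPM (7.43 to 9.50) in tdTomato+EGFP+ cells, where 1 cell held 41.2% of 262 counts, and at 126.1 CPM (121.8 to 130.5) in tdTomato-EGFP+ cells (80.2 and 167.7 on plates 211 and 215). After thinning, 87.4% and 79.3% of uninjured cells of the 2 sorts had a count, against 5.00% and 36.3% at 3 days. The antisense *Gm17120* stood at 130.7, 130.4, 1.90 and 27.6 CPM in the same order.

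*Slc6a20a* has a neighbour copy, *Slc6a20b*, with which 89.3% of the coding bases match in order. The 2 coding sequences share an identical run of 321 bases, and 15.3% of the 50-base runs of *Slc6a20a* exons occur in *Slc6a20b*. The first 120 bases of that run, from coding base 874 of *Slc6a20a*, are shown because a read within them fits both genes.
Slc6a20a and Slc6a20b: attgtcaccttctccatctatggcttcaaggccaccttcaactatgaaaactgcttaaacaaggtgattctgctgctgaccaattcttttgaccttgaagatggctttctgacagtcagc
*Slc6a20b* took 0.850% to 1.29% of the counts of the pair on the uninjured plates and 2.47% in tdTomato-EGFP+ cells of plate 215, but 82.7% and 40.2% in tdTomato+EGFP+ and tdTomato-EGFP+ cells of plate 211. The split between the copies was thus uncertain on plate 211. The sum of both was 572.5 to 619.3 CPM on the uninjured plates. It was 51.1 and 1.79 CPM on plates 211 and 215 in tdTomato+EGFP+ cells and 134.1 and 172.0 CPM in tdTomato-EGFP+ cells, lower at 3 days in both sorts, as for *Slc6a20a* alone.

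**Figure D3:**
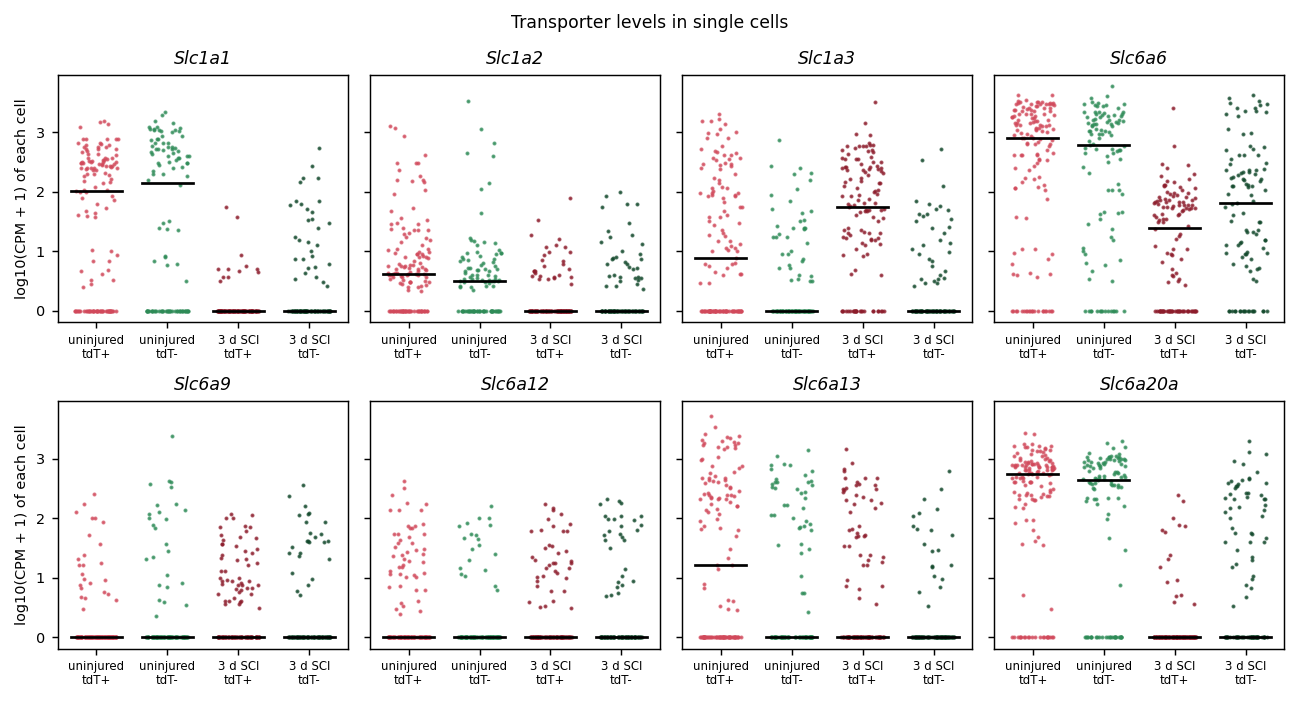
Each point is 1 cell, with its level of the transporter as log10(CPM + 1), and black bars are group medians. Most uninjured cells held *Slc6a6* and *Slc6a20a*, while the median injured cell was at 0 for *Slc6a20a* in both sorts.

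The comparison of the sorts asks which carriers accompany GLAST labelling. Differences are of log2(CPM + 1). A gene was called where the higher group had 10 CPM or more, the sums differed 2-fold or more on that scale, and every plate (or plate pair) had the same direction. In the uninjured cord, *Slc1a3* was 2.71 higher in tdTomato+EGFP+ cells (2.78 and 3.04 within the plates) and *Slc6a13* was 1.97 higher (1.45 to 2.27). *Slc6a9* was lower by 3.12 units, which became -1.50 once the cell with the highest astrocyte marker sum was left out of each group, an alternative chosen after the values were seen. Of the 2 members called higher, *Slc1a3* is not independent of the sort, which leaves *Slc6a13* to set beside the 4.31% of all genes tested. The 1 member called lower stands beside 3.61%. The differences of *Slc6a6* (0.15) and *Slc6a20a* (0.01) were near 0, and those of *Slc1a1* (-0.94) and *Slc6a12* (0.93) were short of the limit. *Slc1a2* differed by -1.86 with opposite signs on the plates, and by -0.02 without those cells.

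At 3 days *Slc1a3* was 4.15 higher in tdTomato+EGFP+ cells (3.90 to 4.87 within plates) and *Slc6a13* was 2.15 higher (1.98 to 2.53). *Slc1a1* (-3.69), *Slc6a6* (-2.62) and *Slc6a20a* (-3.75) were lower, on both plates. These 2 and 3 of the 7 members at 10 CPM or more compare with 4.31% and 17.9% of all genes called higher and lower. Here too *Slc1a3*, 1 of the 2 higher members, is not independent of the sort. *Slc6a9* (-1.09) had opposite signs on the plates and *Slc6a12* differed by -0.04. Over all genes 458 were called higher and 1908 lower, against 974 and 1243 with TMM and 1327 and 1041 with DESeq2 factors. Endothelial markers (344 against 1456 CPM) and pericyte markers (681 against 11050 CPM) were lower in tdTomato+EGFP+ cells as well, and the part of the pericyte markers in the 3 lower carriers was not tested. In cells under 500 CPM of endothelial markers, a limit chosen after the values were seen, *Slc1a1* lost its call (-1.11), and *Slc6a6* (-1.02) and *Slc6a20a* (-3.65) were still called lower.

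The comparison of injured with uninjured cells asks which carriers differ after the crush. In tdTomato+EGFP+ cells 5 of the 8 were called lower at 3 days and 0 higher, against 34.3% and 10.8% of all genes tested. The differences were -6.68 for *Slc1a1* (-7.43 to -6.45 over the 4 plate pairs), -5.96 for *Slc6a20a*, -4.15 for *Slc6a6*, -3.32 for *Slc1a2* and -2.62 for *Slc6a13*. *Slc1a3* (-0.03), *Slc6a12* (-0.92) and *Slc6a9* (0.62) were not called. The median over the 8 was -2.97 against -0.59 over all genes. That median of all genes depended on the scaling, at 0.13 with TMM factors and 0.27 with DESeq2 size factors, under which all 5 lower calls remained and *Slc6a9* was called higher (1.23 and 1.36). Over all genes 1238 were called higher and 3921 lower here, against 2471 and 2036 with TMM and 2848 and 1779 with DESeq2 factors.

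In tdTomato-EGFP+ cells 6 of the 8 were called lower and 0 higher, against 17% and 9.52% of all genes. They were *Slc1a2* (-4.40), *Slc1a1* (-3.93), *Slc6a13* (-2.80), *Slc6a20a* (-2.20), *Slc1a3* (-1.47) and *Slc6a6* (-1.38), with a median over the 8 of -1.83 against -0.20 over all genes. The size for *Slc1a2* leaned on 1 cell of plate 213 with 73.4% of its uninjured counts. Pairs with plate 213 gave -4.85 and -4.80, and those with plate 209 gave -2.61 and -2.56. The call of *Slc1a3* was lost with both other scalings, with CPM averaged over cells (-0.57), with the filtered cells put back (-1.35), without plate 213 (-0.22) and without each group's cell highest in astrocyte markers (-0.68). *Slc6a9* (-1.41) and *Slc6a12* (0.04) were not called. Over all genes the counts called higher and lower were 1089 and 1941, against 1617 and 1223 with TMM and 1499 and 1293 with DESeq2 factors.

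**Figure D4:**
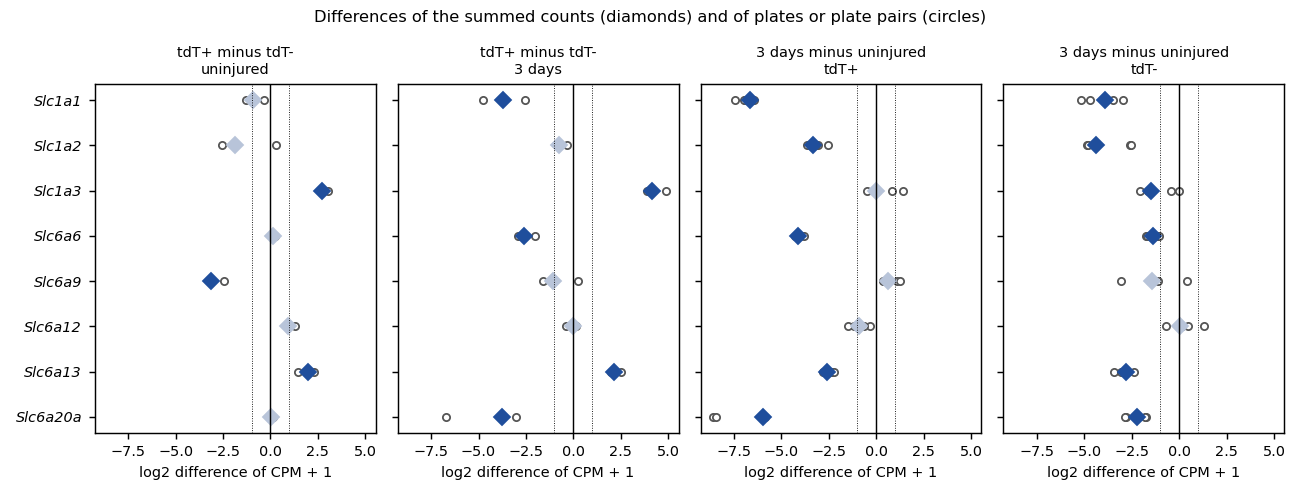
Differences of log2(CPM + 1) for each transporter in the 4 comparisons; diamonds are the group sums, dark where called, circles the plates (sort) or plate pairs (injury), and dotted lines the limit of 1 in either direction. *Slc1a1* and *Slc6a20a* lie far below 0 in the injury comparison of tdTomato+EGFP+ cells, at -6.68 and -5.96, while *Slc1a3* lies at -0.03.

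The injury differences were not alike in the 2 sorts. That of *Slc6a20a* was 3.77 units further down in tdTomato+EGFP+ than in tdTomato-EGFP+ cells, and the corresponding values were -2.77 for *Slc6a6*, -2.75 for *Slc1a1* and -0.96 for *Slc6a12*, each negative in all 4 plate pairs. Those of *Slc1a3* (1.44) and *Slc6a9* (2.03) were positive in all 4. The values of *Slc6a13* (0.18) and *Slc1a2* (1.08) took both signs. With 1 sample per group these differences have no replicate check.

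Several members were held together with endothelial transcripts. Cells were split at the limit of 500 CPM of the 5 endothelial markers. All but 32 uninjured tdTomato+EGFP+ and all but 26 uninjured tdTomato-EGFP+ cells reached it. They held 310.1 and 538.6 CPM of *Slc1a1*, 1625 and 1318 CPM of *Slc6a6* and 698.7 and 664.3 CPM of *Slc6a20a*. Their median pericyte marker sums were 13830 and 14360 CPM. In the 32 and 26 uninjured cells under that limit *Slc1a1* stood at 8.51 and 0.841 CPM and *Slc6a6* at 56.2 and 37 CPM, while *Slc6a20a* kept 269.4 and 193.2 CPM. *Slc6a13* (1323 against 148.3 CPM) and *Slc1a3* (675.6 against 45.8 CPM) lay the other way in uninjured tdTomato+EGFP+ cells, whose cells under the limit had a median fibroblast marker sum of 16070 CPM.

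After injury all but 3 tdTomato+EGFP+ cells and 75 of the tdTomato-EGFP+ cells were under the limit. *Slc6a6* stood there at 50.7 and 103.7 CPM, and in the 28 injured tdTomato-EGFP+ cells at or above the limit it stood at 1281 CPM, near the 1318 CPM of their uninjured counterparts. *Slc1a1* in those 28 cells was at 99.7 CPM against 538.6 CPM, and *Slc6a20a* at 184.3 against 664.3 CPM. Among cells under the limit the injury difference of *Slc6a6* was -0.15 in tdTomato+EGFP+ and 1.46 in tdTomato-EGFP+ cells, and none of the 6 lower calls in tdTomato-EGFP+ cells remained. Uninjured cells at or above the limit also had the higher pericyte marker sums, with medians of 13830 and 14360 against 1314 and 970.8 CPM. Endothelial transcripts, cell type and plate cannot be told apart here, and their part in the lower *Slc6a6* levels at 3 days was not tested. *Slc6a20a* in tdTomato+EGFP+ cells under the limit was at 269.4 CPM uninjured and 7.40 CPM injured, and remained called lower.

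Cells were also clustered with the 8 carriers left out of the genes used. Cluster 3 (71 cells) had all 8 perivascular fibroblast markers raised and is called perivascular fibroblast-like, and clusters 5 (48 cells) and 6 (32 cells) had 6 and 8 of 8 pericyte markers raised and are called pericyte-like. The other 3 are given by number, since cluster 1 combined fibroblast with all 6 cycling markers, and clusters 2 and 4 combined mural with all 5 endothelial markers. *Slc1a3* (487.9 CPM) and *Slc6a13* (723.3 CPM) were highest in cluster 3. *Slc1a1* (537.7 CPM) was highest in cluster 2, *Slc6a6* in clusters 4 (1854 CPM) and 2 (1387 CPM), and *Slc6a20a* in clusters 6 (876.4 CPM) and 2 (687.8 CPM). Cluster 4 also had 4 of the 6 smooth muscle markers raised. Among its uninjured cells *Slc6a9* had a count in 16 of 24 tdTomato-EGFP+ cells (73.2 CPM) and 8 of 23 tdTomato+EGFP+ cells (18.4 CPM). In cluster 2 these were 5 of 51 (6.41 CPM) and 5 of 62 (0.711 CPM). Since the clusters were made from these cells, the values are a description.

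Within cluster 3, *Slc1a3* and *Slc6a13* were higher in tdTomato+EGFP+ cells. *Slc1a3* stood at 754.1 CPM in its 26 uninjured and 695.5 CPM in its 18 injured tdTomato+EGFP+ cells, and had a count in 26 and 17 of them. The 8 uninjured tdTomato-EGFP+ cells had 35.2 CPM, all from 1 cell, and the 19 injured tdTomato-EGFP+ cells had 20.9 CPM. *Slc6a13* had 1473 CPM in the uninjured tdTomato+EGFP+ cells (1467 and 1476 by plate) and at 288.3 CPM in the injured ones (287.3 and 302.6), so that it was lower at 3 days within this cluster where *Slc1a3* was at a similar level. In tdTomato-EGFP+ cells of the cluster *Slc6a13* was at 181.2 CPM, from 1 cell, and 12.9 CPM. More of the *Slc6a13* counts of uninjured tdTomato-EGFP+ cells lay in cluster 2 (1804 counts, 123.1 CPM) than in cluster 3 (371 counts).

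Among pericyte-like cells, cluster 5 held 47 injured tdTomato-EGFP+ cells and no uninjured ones, and cluster 6 held 30 uninjured cells. *Slc6a20a* stood at 159.6 CPM in the injured tdTomato-EGFP+ cells of cluster 5 against 945.8 and 831.9 CPM in the uninjured sorts of cluster 6. *Slc1a1* stood at 0.904 CPM against 153.7 and 159.2 CPM, and *Slc6a6* at 95.3 CPM against 541.8 and 798.0 CPM. Endothelial markers summed to 309 CPM in cluster 5 and 2777 CPM in cluster 6, and their part in these values was not tested.

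**Figure D5:**
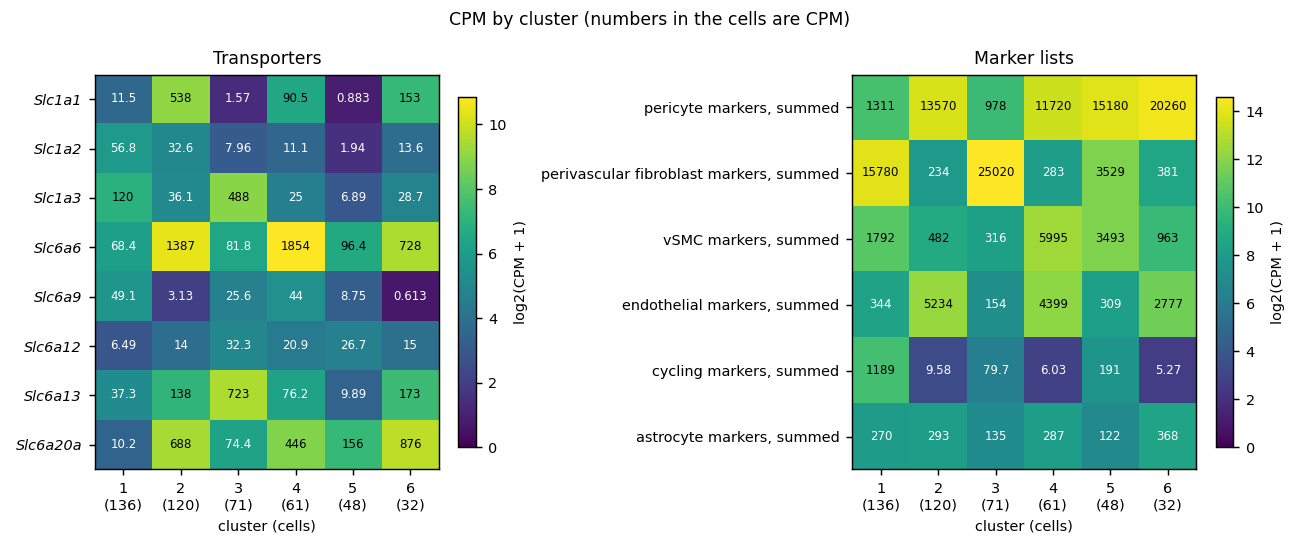
CPM by cluster of the 8 transporters (left) and of 6 marker lists summed (right), with cells of all groups together; colours show log2(CPM + 1) and the number of cells stands under each cluster. *Slc1a3* and *Slc6a13* are highest in cluster 3, where fibroblast markers are at 25020 CPM, and *Slc1a1* in cluster 2, where endothelial markers are at 5234 CPM.

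The genes most like each carrier were taken by Pearson's r of log levels over 421 cells and 14254 genes. All cells share plates and depth with each other, and r is a description. For *Slc6a6* they were *Ly6c1* (0.83), *Cldn5* (0.82), *Egfl7* (0.81), *Slco1c1* (0.81) and *Slc2a1* (0.81), genes known from brain endothelium, and for *Slc1a1*, after the overlapping *Spata6l* (0.97), *Pglyrp1* (0.80), *Kdr* (0.78) and *Slco1a4* (0.77). For *Slc6a20a*, after the antisense *Gm17120* (0.95), they were *Atp13a5* (0.87), *Dock6* (0.83), *Septin4* (0.82), a symbol lacking on plate 211, and *Higd1b* (0.82), a pericyte gene. For *Slc1a3* they were *Trf* (0.71), *Hsd11b1* (0.68) and *Efemp1* (0.67), and for *Slc6a13* they were *Gm16559* (0.63) and *Adh1* (0.62), with *Slc1a3* itself at 0.55. *Slc1a2* was most like *Aldoc* (0.74), an astrocyte gene, and *Slc6a9* like its overlapping *Ccdc24* (0.88) and *Gm17114* (0.84), the next gene being at 0.485. No gene reached 0.4 for *Slc6a12*.

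Single cells commonly held several carriers. Among cells of 20000 counts or more, the median cell had counts of 5 of the 8 in both uninjured sorts and of 3 in both injured sorts. In uninjured tdTomato+EGFP+ cells only 8 held neither *Slc6a6* nor *Slc6a20a*, and 50 held both *Slc1a3* and *Slc6a13*. Cells with 4 or more members made up 92.1%, 76.1%, 45% and 32.4% of the 4 groups.

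Other genes of the same substrates were taken from lists, not picked for how they moved. Of 19 other SLC1 and SLC6 carriers, 5 reached 10 CPM in the injury comparison of tdTomato+EGFP+ cells, of which 3 were called lower (*Slc1a4*, *Slc1a5* and *Slc6a17*) and 0 higher, against 34.3% and 10.8% of all genes. In tdTomato-EGFP+ cells *Slc6a11*, held mainly by the astrocyte-rich cell, and *Slc6a17* were called lower. *Slc1a4*, a carrier of serine and alanine, stood at 100.3, 141.4, 18.4 and 74.4 CPM in the 4 groups. The list median of the injury difference in tdTomato+EGFP+ cells was -1.02, against -0.59 over all genes.

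Of 17 other amino acid carriers, 10 and 11 reached 10 CPM in the injury comparisons of the tdTomato+EGFP+ and the tdTomato-EGFP+ sort, and 1 was called higher and 4 lower in each. Over all genes the shares called higher and lower were 10.8% and 34.3%, then 9.52% and 17%, so the count in tdTomato+EGFP+ cells was near that of all genes. The one called higher was *Slc7a11*, the cystine and glutamate exchanger that releases glutamate while taking in cystine. It stood at 38.2, 1.15, 190.1 and 60.8 CPM, thus also higher in tdTomato+EGFP+ cells at both times. The 4 called lower in both sorts were *Slc7a1*, *Slc7a5*, *Slc38a3* and *Slc38a5*. The glutamine carriers *Slc38a3* (404.0, 360.1, 3.5 and 47 CPM) and *Slc38a5* (285.4 and 392.8 CPM in the uninjured sorts, with injury differences of -6.01 and -1.96) were, like *Slc1a1* and *Slc6a20a*, lowest in injured tdTomato+EGFP+ cells. *Slc38a5* and *Slc1a1* were both among the 10 leading genes of cluster 2.

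Of 27 metabolic genes of these substrates, 20 reached 10 CPM in the injury comparison of tdTomato+EGFP+ cells, with 5 called higher and 7 lower, the latter near the 34.3% of all genes. In tdTomato-EGFP+ cells 19 reached it, with 3 called higher and 3 lower, against 9.52% and 17% of all genes. Genes higher in both sorts were *Shmt1* (glycine from serine), with differences of 2.61 and 2.34, and *Pycr1* (1.59 and 1.93) and *Aldh18a1* (1.91 and 1.04), which make proline. *Aldh4a1*, which degrades proline products to glutamate, was lower (-1.29 and -1.74). Lower in both were also *Gatm* (-3.92 and -1.44), which uses glycine to make the creatine precursor, and *Abat* (-1.82 and -1.31), the GABA transaminase. *Glul*, glutamine synthetase, was at 1026, 923.6, 596.0 and 1213 CPM, and the GABA-synthesising *Gad1* and *Gad2* were below 2 CPM in all groups. The medians of the list were -0.08 and 0.05.

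Of 44 receptor genes, 5 and 7 reached 10 CPM in the 2 injury comparisons. In tdTomato+EGFP+ cells 4 were called lower and 0 higher, against 34.3% and 10.8% of all genes, and in tdTomato-EGFP+ cells 4 lower and 1 higher, against 17% and 9.52%. The metabotropic glutamate receptors *Grm3* (99.1, 92.05, 1.54 and 44.6 CPM) and *Grm7* (65.6, 119.6, 1.12 and 24.7 CPM) and the glycine receptor subunit *Glrb* were lower in both. The AMPA receptor subunit *Gria3* was higher in tdTomato+EGFP+ cells, at 15.4 against 1.86 CPM uninjured and 18.9 against 1.21 CPM at 3 days.

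The lists were also compared between the sorts. In the uninjured cord, *Slc6a11* was called lower in tdTomato+EGFP+ cells (-3.45). Of 12 other amino acid carriers at 10 CPM or more, 1 was called higher and 1 lower, of 18 metabolic genes 1 and 1, and of 7 receptors 1 and 0. Over all genes the shares called higher and lower were 4.31% and 3.61%. At 3 days the counts called higher and lower were 0 and 1 of 4 SLC1 and SLC6 carriers, 1 and 4 of 10 amino acid carriers, 0 and 4 of 19 metabolic genes, and 1 and 3 of 5 receptors. Over all genes the shares were 4.31% and 17.9%, so the lower count of the metabolic genes was near that of all genes. *Slc1a4* was the lower SLC1 carrier (-1.96), and *Glul* was among the 4 lower metabolic genes (-1.02).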

How the data were processed

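The authors deposited whole-number counts per gene and cell, and per the labels the processing notes name mm10. Aligner, annotation and strand setting are not given in the sources used here, nor is it given if counts are of reads or of molecules. The columns of 503 cells matched the labels, and 1465 other columns were not used. The members and lists were chosen with earlier results of these data known. Cells with 200 or more genes and under 20% mitochondrial counts were kept, and 34 with *Pecam1* over 1 on the ln(1 + counts per 10000) scale and over *Pdgfrb* were removed, leaving 468 (rules on *Gfap* and *Ptprc* removed 0, the first filter 1). The study's limit of 1200 genes would keep 33 of these and was an alternative. Cells were sorted singly and no doublet caller was run. ERCC rows, 0.0314% of counts, were left out of totals.

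Counts were summed and compared as log2(CPM + 1) in Python 3.11.15 (numpy 2.4.6, scipy 1.17.1). TMM (edgeR 4.0.16) and DESeq2 1.42.0 factors were alternatives. Seurat 5.3.0 clustered the cells on 2000 variable genes without the members, 20 principal components and resolution 0.5. Named genes were the members, the called genes of the lists, and the genes most like each member. A self-test of the call rule was run on simulated data, and its result is not given or used here. A count of 0 in a group allows up to 0.0781 to 0.117 CPM (3 counts of the total). Results of 1 gene of the lists are not reported here.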

Additional observations from a re-analysis of the deposited data

Results flagged for a closer look

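The sort difference of *Slc6a6*, the taurine carrier, had opposite directions at the 2 times on every plate. It was 0.15 in the uninjured cord (0.06 and 0.26 on the plates), higher in tdTomato+EGFP+ cells, and -2.62 at 3 days (-2.93 and -2.04). The difference between the times was not tested, since each group is 1 sample.

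The 34 cells removed by the *Pecam1* rule were outside the comparisons and held counts of all 8 transporters. *Slc6a6* stood there at 2249 CPM, *Slc1a1* at 384.6 CPM and *Slc6a20a* at 330.8 CPM, with a count in 31, 27 and 23 of the 34 cells. *Slc6a13* stood at 47.1 CPM, *Slc1a2* at 33.7 CPM, *Slc1a3* at 9.67 CPM, *Slc6a9* at 8.40 CPM and *Slc6a12* at 4.37 CPM.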

How the results depend on the processing

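No paired analysis was possible because each group is 1 sample and no test was made. With TMM factors, with DESeq2 factors and without plate 213, 1 member (*Slc6a9*) was called higher after injury in tdTomato+EGFP+ cells. Over all genes 2471 of 11437, 2848 of 11471 and 1457 of 11343 were called higher there, in that order of settings. With CPM averaged over cells, 1 member (*Slc6a12*) was called higher after injury in tdTomato-EGFP+ cells, against 1148 of 11444 genes. Without plate 209, 3 members were called lower in uninjured tdTomato+EGFP+ cells (*Slc1a1*, *Slc1a2* and *Slc6a9*), against 904 of 11382 genes. Cells with at most 1200 genes (33 cells, none injured tdTomato-EGFP+) gave 0 members higher and 0 lower in the uninjured sort. Over all genes 198 and 287 of 6158 were called there. After injury in tdTomato+EGFP+ cells 2 members were higher and 0 lower, against 3528 and 159 of 6461 genes, whose median was 1.62. *Slc6a13* reversed to 6.67 after injury and to -4.84 between the uninjured sorts. These 2 values rest on only 10 uninjured and 10 injured tdTomato+EGFP+ cells and 13 uninjured tdTomato-EGFP+ cells, each with at most 1200 genes.

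In cells under 500 CPM of endothelial markers, an alternative chosen after seeing the data, 3 members were called higher and 0 lower after injury in tdTomato-EGFP+ cells. Over all genes 2089 and 1718 of 11473 were called higher and lower there. *Slc1a1* (0.64), *Slc6a13* (3.4) and *Slc6a6* (1.46) reversed there. In tdTomato+EGFP+ cells 5 members were still called lower, against 3201 of 11260 genes, but *Slc1a3* and *Slc6a12* took the place of *Slc1a1* and *Slc6a6*. The 3-day sort call of *Slc1a1* was lost (-1.11). Leaving out each group's cell highest in astrocyte markers, also chosen afterwards, ended only the injury call of *Slc1a3* in tdTomato-EGFP+ cells. Pseudocounts of 0.1 and 10 CPM, no minimum level, and cells of 20000 or more counts changed no call.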
